A study of Saccharomyces cerevisiae with 33 samples.

Results

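The data described here are the transcriptome of an *opi1*Δ strain of *Saccharomyces cerevisiae* in C-limited chemostats, sampled when CO2 production was at its minimum, set against the reference strain under the same limitation. They are 6 of the 33 Affymetrix Yeast Genome 2.0 arrays of the study, 3 labelled *opi1*Δ at the bottom of the CO2 profile and 3 labelled C-limited reference, and were chosen by these labels alone. Of 10928 probe sets on the array, 5498 could be paired with exactly 1 yeast gene. They stand for 5449 genes, all of which were tested.

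The *opi1*Δ strain carries a loxP-Kan-loxP cassette in place of *OPI1* in the prototrophic MATa strain CEN.PK113-7D, which itself is the reference. All cultures were aerobic, grew on a defined glucose medium at a fixed dilution rate and received inositol and choline. C-limited *opi1*Δ cultures oscillated and were sampled at maximum and at minimum CO2 production, whereas the reference did not oscillate, so that in the comparison with the reference the deletion and the phase of the oscillation cannot be told apart. The *opi1*Δ arrays at maximum CO2 production, N-limited *opi1*Δ with its N-limited reference, and C-limited *ino2*Δ*ino4*Δ (3 arrays each) are used below only where they show how the minimum-CO2 arrays differ. Whether the 3 arrays of a group came from separate cultures is not stated with the samples, so p-values measure the spread between arrays.

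In yeast, the Ino2-Ino4 heterodimer binds inositol-sensitive promoter elements and activates genes that make inositol and turn phosphatidic acid into phospholipids. Opi1 holds this activation down. It is tethered to the endoplasmic reticulum by phosphatidic acid and Scs2, and moves into the nucleus when inositol is plentiful and phosphatidic acid is used up. Without Opi1 the Ino2-Ino4 targets stay on in the presence of inositol and choline, both of which this medium contained. How far these targets were repressed in the reference was not tested.

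Levels are given as the deposited log2 PLIER signal and compared only within a gene. Changes are log2 fold changes, *opi1*Δ at minimum CO2 minus reference, ± the standard error of a limma model of all 33 arrays, with p-values adjusted by Benjamini and Hochberg over 5449 genes. A gene is said to have risen, fallen or passed at an adjusted p below 0.01. A log2 signal of 5.47, under which 95% of the probe sets for genes of no *S. cerevisiae* sequence lie, is taken as background, and where a group's mean lies at or below it the change is given as a lower bound. Precision is limited by having 3 arrays a group.

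The 3 minimum-CO2 arrays were uneven. The median over genes of the SD between arrays was 0.251 in this group, against 0.0725 in the reference and 0.0603 in *opi1*Δ at maximum CO2. Replicates 1 and 3 correlated at r = 0.991 over genes, replicate 2 with them at 0.888 and 0.897, and the reference arrays with each other at 0.994 to 0.998. With the reference arrays, replicate 2 correlated at 0.933 to 0.939, and replicates 1 and 3 at 0.923 to 0.934. The change against the reference correlated at r = 0.942 between replicates 1 and 3 and at 0.184 between replicate 2 and their mean, over genes that are not independent. In replicate 2, 377 genes stood more than 1 log2 unit from the reference and in the mean of replicates 1 and 3, 308 did; 19 were above and 45 below in both, and 11 lay on opposite sides. The deviations of replicates 1 and 3 from their group mean were shared by replicate 1 of the N-limited reference and by 2 arrays, replicates 1 and 3, of the double mutant *ino2*Δ*ino4*Δ under N-limitation (r = 0.276 to 0.770 over 8 pairs of arrays from different groups). These arrays were picked after the data were seen. Since the deviations from a mean of 3 arrays sum to 0, they cannot tell whether replicates 1 and 3 or replicate 2 stood apart. Since the model pools the spread of all groups, its standard errors understate that of the minimum-CO2 arrays, and results below are given with replicate 2 left out and with replicates 1 and 3 left out, which leaves 1 array that is assumed to vary like the other groups.

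**Figure D1:**
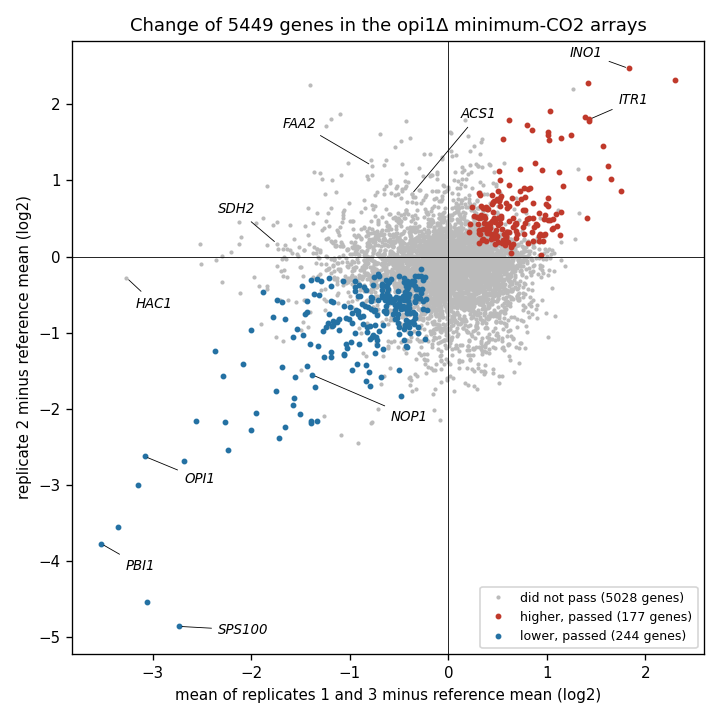
Change against the reference mean (log2) of 5449 genes, with the mean of minimum-CO2 replicates 1 and 3 on the x axis and replicate 2 on the y axis; red and blue points passed (177 higher, 244 lower) and grey points did not. *INO1*, *ITR1*, *OPI1*, *PBI1* and *SPS100* are displaced in the same direction on both axes, while *HAC1* and *SDH2* are low in replicates 1 and 3 only.

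The deleted gene read at background. *OPI1* gave 5.05, 5.43 and 4.91 in *opi1*Δ at minimum CO2, against 7.96, 7.96 and 8.26 in the reference, at least 6.04-fold lower (adjusted p = 3.0e-14). No *opi1*Δ array came near a reference array. Of its chromosomal neighbours, *AIM17* averaged 7.22 ± 0.36 in *opi1*Δ and 7.92 ± 0.06 in the reference (SD, n = 3 each; log2 fold change -0.70 ± 0.23, adjusted p = 0.0323) and *APM2* 6.81 ± 0.06 and 6.73 ± 0.07, and neither passed. The gene beyond *AIM17*, the meiotic endonuclease gene *SPO11*, did. It read 6.80, 6.30 and 7.07 in *opi1*Δ, against 5.28, 5.23 and 5.33 in the reference, where it lies at background, so that it was at least 2.39-fold higher (adjusted p = 2.4e-09).

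The mating type fits the MATa label in part. The a-specific genes *STE2*, *MFA1*, *MFA2*, *STE6* and *AGA2*, which encode the α-factor receptor, both a-factor precursors, their exporter and an agglutinin subunit, read between 8.02 and 10.59 in the *opi1*Δ arrays. The other a-specific genes listed were *BAR1*, at 7.11, 7.59 and 7.17, and *ASG7*, not far above background, at 6.15, 6.06 and 6.33. Levels of different genes are not comparable, so each is set against background only. Among α-specific genes, *MF(ALPHA)2* read at background (5.25, 5.18 and 5.36) and the a-factor receptor gene *STE3* close to it (5.88, 5.26 and 5.77). *MF(ALPHA)1*, the main α-factor gene, did not follow the label. It and the α-agglutinin gene *SAG1* rose against the reference, 2 of the 4 α-specific genes listed, and both are described with the mating genes. Averaged over all groups of the study, 3 of these 4 genes lay above background.

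In total 421 genes passed (7.73% of those tested), 177 of them higher (3.25%) and 244 lower (4.48%). Counts of list members below are to be read beside these shares. The arrays of both groups did not overlap for 419 of these genes, and for 1915 of all genes (35.1%). The median change over all genes was -0.05. Centring every array on its median gave 318 higher and 188 lower genes, quantile normalisation 331 and 176, so that the excess of lower genes rests on the scaling of the arrays. Without replicate 2, 720 genes rose (13.2%) and 595 fell (10.9%). With replicates 1 and 3 left out, 201 rose (3.69%) and 763 fell (14.0%). Leaving out reference replicates 1, 2 and 3 in turn gave 145, 172 and 181 genes, and leaving out *opi1*Δ replicates 1 and 3 gave 283 and 247. Of the 421 genes, 123 passed in all 6 of these fits with 1 array left out, 49 higher and 74 lower. With both scalings added 120 remained, and 93 (37 higher, 56 lower) also passed without replicates 1 and 3.

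Genes for inositol synthesis and uptake rose for the enzyme and the transporter known as Ino2-Ino4 targets and for no other member of the list. *INO1*, which encodes inositol-3-phosphate synthase, the committed step of inositol synthesis, read 11.66, 12.31 and 11.67 in *opi1*Δ at minimum CO2, against 9.81, 9.80 and 9.89 in the reference. It rose by 2.05 ± 0.18 (adjusted p = 9.8e-09), a 4.13-fold difference. The lowest *opi1*Δ array lay far above the highest reference array, and replicate 2 was the highest. *ITR1*, the major myo-inositol transporter gene, read 11.47, 11.88 and 11.55 in *opi1*Δ, against 10.12, 10.06 and 10.05 in the reference, and rose by 1.55 ± 0.14 (adjusted p = 9.8e-09). Of the remaining members, the inositol monophosphatase gene *INM1* averaged 5.98 ± 0.24 in *opi1*Δ and 6.55 ± 0.09 in the reference (-0.57 ± 0.16, adjusted p = 0.0143) and did not pass. All its *opi1*Δ arrays lay below the reference, while 35.1% of all genes had no overlap between the groups. The minor transporter gene *ITR2* changed by -0.11 ± 0.12. The list thus had 2 of 5 members higher and a median change of -0.11, beside -0.05 for all genes.

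The route from CDP-diacylglycerol to phosphatidylcholine makes phosphatidylserine, decarboxylates it to phosphatidylethanolamine and methylates that. Its genes rose at the entry and at both methylation steps. *CHO1*, which encodes phosphatidylserine synthase, read 10.39, 10.87 and 10.45 in *opi1*Δ, against 8.97, 9.0 and 9.14 in the reference (1.54 ± 0.11, adjusted p = 1.45e-10). *CHO2*, the phosphatidylethanolamine methyltransferase gene, read 10.62, 10.78 and 10.25, against 9.60, 9.63 and 9.43 in the reference (0.999 ± 0.158, adjusted p = 1.3e-04). *OPI3*, whose product adds the later methyl groups, read 10.45, 11.63 and 11.18, against 9.97, 9.91 and 10.01 (1.12 ± 0.27, adjusted p = 0.00617). Every *opi1*Δ array lay above every reference array for these genes, but *OPI3* spread over more than 1 log2 unit. It did not pass without *opi1*Δ replicate 2 (0.85, adjusted p = 0.0189), without replicate 3 or without any of the reference arrays (adjusted p up to 0.0247). *CHO1* and *CHO2* passed in all 6 such fits.

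The decarboxylase genes were less clear. *PSD2*, for the enzyme of the endosomal membranes, read 7.40, 7.63 and 7.28 in *opi1*Δ, against 7.04, 7.01 and 6.92 in the reference (0.45 ± 0.10, adjusted p = 0.00447), and passed only in the fit without *opi1*Δ replicate 3 when 1 array was left out (0.35 to 0.53, adjusted p up to 0.0242). *PSD1*, for the mitochondrial enzyme that makes most phosphatidylethanolamine, read 7.60, 8.54 and 7.72, against 7.38, 7.32 and 7.37 (0.60 ± 0.21, adjusted p = 0.0469). *CDS1*, the CDP-diacylglycerol synthase gene at the head of the route, read 8.18, 9.46 and 8.27, against 8.35, 8.42 and 8.40 (0.24 ± 0.23, adjusted p = 0.454). In both genes replicate 2 stood about 1 log2 unit above the reference and replicates 1 and 3 did not: with replicate 2 as the sole *opi1*Δ array the changes were 1.19 and 1.07 (adjusted p = 0.00137 and 0.00158), and without it they were 0.30 and -0.17. *TAM41*, the mitochondrial CDP-diacylglycerol synthase gene of the cardiolipin branch, fell, with 6.52, 7.17 and 6.92 in *opi1*Δ, against 7.61, 7.43 and 7.67 in the reference (-0.70 ± 0.14, adjusted p = 0.0017), and lost its call without *opi1*Δ replicate 1 and without reference replicates 1 and 3 (adjusted p up to 0.0154). In all, 4 of 11 members of the route and its cardiolipin branch rose and 1 fell, with a median of 0.24. Without replicate 2 the counts were 2 and 1, beside 13.2% higher and 10.9% lower among all genes in that fit.

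The Kennedy pathway builds phosphatidylcholine and phosphatidylethanolamine from choline and ethanolamine that are taken up or recycled. Its choline kinase and cholinephosphotransferase genes rose. *CKI1* read 7.70, 7.54 and 7.86 in *opi1*Δ, against 6.69, 6.58 and 6.56 in the reference (1.09 ± 0.09, adjusted p = 1.9e-09), and *CPT1* read 9.42, 9.48 and 9.39, against 8.58, 8.59 and 8.62 (0.83 ± 0.07, adjusted p = 1.1e-08). Both held in all 6 fits with 1 array left out and with replicates 1 and 3 left out. The ethanolamine kinase gene *EKI1* (0.48 ± 0.13, adjusted p = 0.0141) and the ethanolaminephosphotransferase gene *EPT1* (0.29 ± 0.08, adjusted p = 0.0114) did not pass. Their *opi1*Δ arrays did not overlap the reference, which holds for 35.1% of all genes. The choline transporter gene *HNM1* read 8.85, 9.78 and 9.03, against 8.83, 8.79 and 8.67 (0.46 ± 0.25, adjusted p = 0.18), again with replicate 2 apart. Of 7 members 2 rose and none fell, 4 rose with arrays centred on their median, and the median was 0.46.

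**Figure D2:**
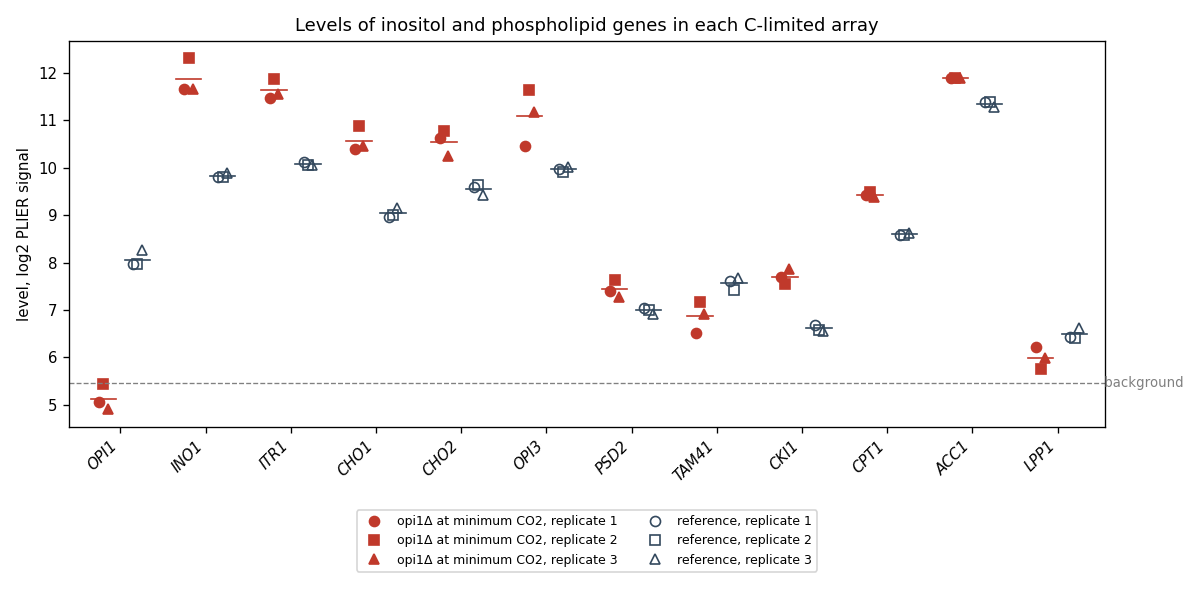
Levels (log2 PLIER signal) of *OPI1*, the inositol and phospholipid genes that passed, *ACC1* and *LPP1* in each array: filled symbols are *opi1*Δ at minimum CO2 and open symbols to their right the reference, with a line at each group's mean and a symbol shape per replicate. *INO1*, *ITR1*, *CHO1*, *CHO2*, *OPI3*, *CKI1*, *CPT1*, *PSD2* and *ACC1* are higher in every *opi1*Δ array, and levels of different genes are not comparable.

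The activator genes moved little, and some other regulator genes split the replicates. *INO2* averaged 6.60 ± 0.21 in *opi1*Δ at minimum CO2 and 6.23 ± 0.04 in the reference, and *INO4* 7.26 ± 0.27 and 6.87 ± 0.12 (SD, n = 3 each); neither passed (adjusted p = 0.106 and 0.347). *SCS2*, which anchors Opi1 at the endoplasmic reticulum, read 8.24, 9.48 and 8.47 in *opi1*Δ, against 9.47, 9.49 and 9.59 in the reference (-0.79 ± 0.29, adjusted p = 0.0562). Replicate 2 equalled the reference and replicates 1 and 3 were about 1 log2 unit lower, and without replicate 2 *SCS2* fell by 1.16 (adjusted p = 0.00354). *UME6*, a repressor gene that acts on *INO1* among others, had the reverse layout, with 7.94, 7.11 and 8.06 against 7.22, 7.15 and 7.22 (0.51 ± 0.19, adjusted p = 0.0551). Apart from *OPI1* itself, none of the other 8 regulator genes passed. Without replicate 2, 3 of the 9 fell and 1 rose, beside 10.9% and 13.2% of all genes.

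Genes around phosphatidic acid and fatty acids changed in few members. *LPP1*, 1 of the phosphatidate phosphatase genes, read 6.22, 5.75 and 5.98 in *opi1*Δ, against 6.43, 6.41 and 6.62 in the reference (-0.51 ± 0.13, adjusted p = 0.00941). It was lower in every array, but passed only without *opi1*Δ replicate 1 when single arrays were left out (adjusted p up to 0.05), and with neither scaling alternative. The changes of the 7 genes of this list lay between -0.51 and -0.04. *ACC1*, the acetyl-CoA carboxylase gene that starts fatty acid synthesis and a known Ino2-Ino4 target, gave nearly the same value in each array, 11.89, 11.89 and 11.89 in *opi1*Δ, against 11.38, 11.39 and 11.29 in the reference (0.53 ± 0.07, adjusted p = 4.6e-06). The fatty acid synthase gene *FAS1* (11.66, 12.23 and 11.63, against 11.56, 11.70 and 11.48) and the desaturase gene *OLE1* (11.42, 12.02 and 11.37, against 11.38, 11.31 and 11.25) were high in replicate 2 alone and did not pass (adjusted p = 0.338 and 0.253). *ACS1*, for the acetyl-CoA synthetase of glucose-starved cells, and the peroxisomal acyl-CoA synthetase gene *FAA2* split the replicates further: *ACS1* read 10.61, 11.84 and 10.70, against 11.02, 11.14 and 10.91, and *FAA2* read 7.86, 9.80 and 7.79, against 8.78, 8.74 and 8.28. Both lie below the reference in replicates 1 and 3 and above it in replicate 2. Of 18 genes of fatty acid synthesis and activation 1 rose and none fell (median 0.03). Of 15 genes of acyltransferases, storage lipids and lipases the steryl ester hydrolase gene *TGL1* alone passed (0.41 ± 0.10, adjusted p = 0.00718), and it was lost in 5 of the 6 fits with 1 array left out, all but that without *opi1*Δ replicate 1 (0.34 to 0.50, adjusted p up to 0.0385).

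Genes of late sterol synthesis fell together. These steps, several of which use oxygen, lead through lanosterol to ergosterol. *ERG3*, the C-5 sterol desaturase gene, read 8.47, 8.90 and 8.54 in *opi1*Δ at minimum CO2, against 11.02, 11.15 and 11.02 in the reference, and fell by 2.43 (adjusted p = 3.8e-05). *ERG4*, for the last step, read 7.84, 7.73 and 7.66, against 9.30, 9.37 and 9.25 (-1.56 ± 0.21, adjusted p = 9.6e-06). *ERG26*, a C-3 sterol dehydrogenase gene, read 7.52, 7.86 and 7.68, against 8.96, 8.91 and 9.15 (-1.32 ± 0.23), and *ERG2*, the C-8 sterol isomerase gene, read 9.60, 9.56 and 9.85, against 10.77, 10.68 and 10.81 (-1.08 ± 0.12). These 4 genes passed in all 6 fits with 1 array left out, and replicate 2 was no exception here, although as the sole *opi1*Δ array it did not carry *ERG26* past the threshold (-1.14, adjusted p = 0.0121). The desaturase gene *ERG5* (-1.08 ± 0.22, adjusted p = 0.002) was lost without reference replicates 1 and 2 (adjusted p up to 0.0134), and the cytochrome b5 gene *CYB5* (-1.14 ± 0.29, adjusted p = 0.00862) in each of the 6 fits (adjusted p up to 0.0348). In all 10 of 16 late sterol genes fell and none rose, beside 4.48% lower and 3.25% higher among all genes. The list median was -0.65 and the array medians were -0.68, -0.98 and -0.75. With quantile normalisation 6 fell. Without replicate 2, 7 fell, beside 10.9% of all genes.

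The early, mevalonate part of the pathway was low in replicates 1 and 3 but not in replicate 2, and its median change was -0.60. Of 10 genes, *ERG8*, the phosphomevalonate kinase gene, fell (-0.58 ± 0.15, adjusted p = 0.00884) and *HMG2*, a HMG-CoA reductase gene, rose (0.49 ± 0.12, adjusted p = 0.00842). Both were lost in 5 of 6 fits with 1 array left out, *ERG8* in all but that without *opi1*Δ replicate 2 and *HMG2* in all but that without replicate 1 (adjusted p up to 0.0413 and 0.0363). *ERG8* was also lost under both scalings. The array medians of the early genes were -0.69, 0.07 and -0.65, and 5 of the 10 fell without replicate 2, beside 10.9% of all genes. *HES1*, an oxysterol-binding protein homologue gene, fell with the late sterol genes to background, with 5.42, 5.20 and 5.54 in *opi1*Δ, against 7.47, 7.38 and 7.59 in the reference, at least 4.03-fold lower (adjusted p = 7.2e-06).

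Deep falls were found in genes of cell wall mannoproteins of the PAU, DAN and TIR families, known in yeast as genes raised at low oxygen or in the cold. *PAU2* read 6.26, 6.10 and 6.35 in *opi1*Δ, against 9.57, 9.65 and 9.76 in the reference, and fell by 3.42 (adjusted p = 8.9e-06). *PAU3* read 6.06, 6.23 and 6.09, against 9.28, 9.05 and 9.35, and fell by 3.10 (adjusted p = 1.1e-09). *PAU7* read 7.43, 7.42 and 7.23, against 9.61, 9.60 and 9.57 (-2.23 ± 0.15). These genes were well above background in every reference array and the 3 *opi1*Δ arrays lay close together. *PAU24* reached background, with 5.31, 5.28 and 5.26 against 7.96, 8.0 and 7.95, at least 5.66-fold lower (adjusted p = 4.7e-11). *TIR3*, with 5.90, 6.65 and 6.05 against 7.99, 8.03 and 8.15 (-1.86 ± 0.39, adjusted p = 0.00221), was lost without *opi1*Δ replicates 1 and 3 and reference replicates 1 and 3 (adjusted p up to 0.0122). Of 19 members 10 fell and none rose, beside 4.48% lower and 3.25% higher among all genes. In all 6 fits with 1 array left out 9 of them fell, and the list median was -0.63. PAU genes are near-identical in sequence, and their probe sets can share signal, so their number is not a number of independent genes.

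**Figure D3:**
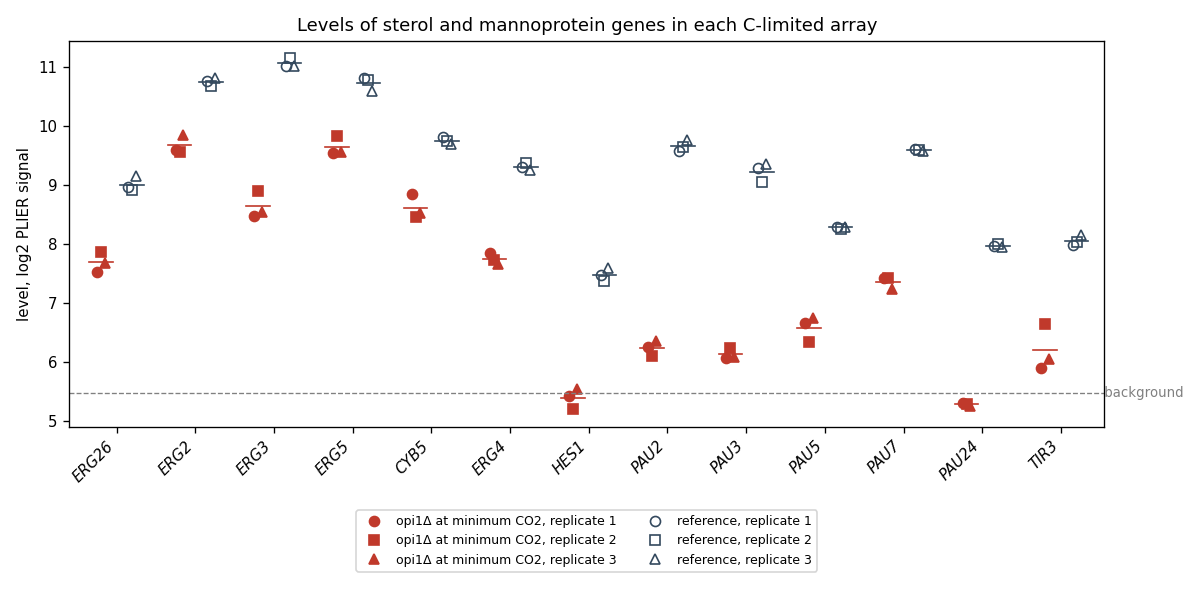
Levels (log2 PLIER signal) of sterol and mannoprotein genes in each array, with filled symbols for *opi1*Δ at minimum CO2 and open symbols to their right for the reference, a line at each group's mean and a dashed line at background. Every *opi1*Δ array lies below every reference array for each gene, and *HES1* and *PAU24* average below background in *opi1*Δ.

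Other genes among the largest falls were *PBI1*, with 5.79, 5.60 and 5.91 in *opi1*Δ, against 9.30, 9.44 and 9.38 in the reference (-3.61 ± 0.49, adjusted p = 1.7e-05), and *YGR201C* (-2.05 ± 0.25). The spore wall gene *SPS100* read 7.60, 5.52 and 7.69, against 10.40, 10.38 and 10.37 (-3.45 ± 0.49), and *YDL218W* 6.60, 5.24 and 6.87, against 9.78, 9.71 and 9.87 (-3.55 ± 0.61). In both, replicate 2 lay lowest, at or near background, and replicates 1 and 3 were still far below the reference. The thioredoxin peroxidase gene *TSA2* fell by 1.99 (5.71, 5.71 and 5.94, against 7.89, 7.54 and 7.90). The flavohaemoglobin gene *YHB1*, which detoxifies nitric oxide, fell by 1.99 (8.32, 9.56 and 8.55, against 10.83, 10.83 and 10.76). The aquaporin gene *AQY1* (-1.94 ± 0.43) and the cell wall gene *PIR3* (-2.34 ± 0.57) fell too. These last 3 did not hold: *AQY1* was lost without any reference array (adjusted p up to 0.0163), *YHB1* and *PIR3* without any reference array and without *opi1*Δ replicates 1 and 3 (adjusted p up to 0.0226 and 0.0236). Of 27 genes of the cell wall and its remodelling 4 fell and 1 rose, beside 4.48% lower and 3.25% higher among all genes. Among the lower were the glucan synthase gene *FKS1* (-1.23 ± 0.27, adjusted p = 0.00291) and the glucanase-family gene *SCW10* (-1.40 ± 0.35, adjusted p = 0.00733). The chitin-glucan crosslinking gene *UTR2* rose by 1.22 ± 0.20. *FKS1* was lost without reference replicates 1 and 2 (adjusted p up to 0.018) and *SCW10* in every such fit but that without *opi1*Δ replicate 2 (adjusted p up to 0.03).

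Among the largest rises outside lipid metabolism, *YGR109W-A* read 7.75, 7.80 and 7.81 in *opi1*Δ, against 5.45, 5.38 and 5.59 in the reference, where it lies at the edge of background (2.31 ± 0.24, adjusted p = 2.5e-07). *RSF1*, a gene needed for respiratory growth, read 8.76, 8.58 and 8.65, against 7.22, 7.07 and 7.11 (1.53 ± 0.15), and *MHO1* 10.69, 11.07 and 10.61, against 9.58, 9.40 and 9.54 (1.28 ± 0.21). All 3 genes passed in the 6 fits with 1 array left out. *YLR154C-H* rose by 1.54 ± 0.28 (adjusted p = 4.7e-04). *YLR264C-A* (1.48 ± 0.38, adjusted p = 0.00951) was lost after quantile normalisation and in 5 of the 6 fits, all but that without *opi1*Δ replicate 2 (adjusted p up to 0.0567).

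Several mating genes rose, agglutinin genes among them. *AGA1*, the anchor subunit gene, read 8.13, 8.52 and 8.19 in *opi1*Δ, against 6.87, 7.02 and 6.87 in the reference (1.36 ± 0.19, adjusted p = 1.7e-05), and *AGA2*, the binding subunit, 9.95, 9.05 and 9.92, against 8.13, 8.17 and 8.26 (1.45 ± 0.25, adjusted p = 2.9e-04). The adhesin gene *FIG2* was even, at 7.33, 7.44 and 7.40, against 6.46, 6.67 and 6.48 (0.85 ± 0.10, adjusted p = 1.1e-06). These 3 genes passed in all 6 fits with 1 array left out, although *AGA2* was lost with replicate 2 as the sole *opi1*Δ array (0.86, adjusted p = 0.0453). The a-factor gene *MFA1* (1.30 ± 0.29, adjusted p = 0.00339), the fusion gene *FUS1* (0.96 ± 0.23, adjusted p = 0.0064) and the transcription factor gene *KAR4* (0.48 ± 0.11, adjusted p = 0.00452) rose as well. They were lost without *opi1*Δ replicates 1 and 3 and without reference replicates 1 and 2, and *MFA1* and *FUS1* also without reference replicate 3 (adjusted p up to 0.0165, 0.0309 and 0.0273). In all 6 of 30 mating genes rose and none fell, beside 3.25% higher and 4.48% lower among all genes. The list median was 0.29 and the array medians were 0.30, 0.11 and 0.38. Without replicate 2, 13 rose and 2 fell, beside 13.2% and 10.9% of all genes.

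*MF(ALPHA)1* belongs to the other mating type. It read 7.09, 8.07 and 7.32 in *opi1*Δ at minimum CO2, against 5.78, 5.72 and 5.86 in the reference, close to background, and rose by 1.70 ± 0.25 (adjusted p = 3.3e-05). Replicate 2 was highest and all *opi1*Δ arrays lay above all reference arrays. *SAG1*, the α-agglutinin gene, rose by 0.47 ± 0.11 (adjusted p = 0.00424), a call lost in 5 of 6 fits with 1 array left out, all but that without *opi1*Δ replicate 2 (adjusted p up to 0.0264). *STE3* changed by -0.33 ± 0.11 (adjusted p = 0.034). In RNA of a whole culture, a modest level in all cells and a high level in a few cannot be told apart.

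Few genes of the methyl cycle passed. *SAM1*, which makes S-adenosylmethionine, the methyl donor of Cho2 and Opi3, read 8.03, 7.86 and 7.73 in *opi1*Δ, against 9.63, 9.56 and 9.69 in the reference (-1.75 ± 0.40, adjusted p = 0.00452). *MET6*, the methionine synthase gene, read 10.20, 10.38 and 10.02, against 11.38, 11.31 and 11.04 (-1.04 ± 0.24, adjusted p = 0.00383), and the adenosine kinase gene *ADO1* read 10.58, 10.04 and 10.49, against 9.87, 9.81 and 9.96 (0.49 ± 0.11, adjusted p = 0.00283). No array overlapped, yet all 3 genes were lost without *opi1*Δ replicates 1 and 3 and reference replicates 1 and 2, and *SAM1* also without reference replicate 3 (adjusted p up to 0.019, 0.0224 and 0.0222). *MET14*, for adenylylsulfate kinase, did not pass (-1.003 ± 0.289, adjusted p = 0.0172). Of 27 sulfur and methyl cycle genes 2 fell and 1 rose (median -0.38), beside 4.48% lower and 3.25% higher among all genes.

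In purine and pyrimidine synthesis, *ADE1*, an enzyme gene of the purine route, was lower, with 8.16, 8.25 and 8.46 in *opi1*Δ, against 9.49, 9.45 and 9.56 in the reference (-1.21 ± 0.08, adjusted p = 4.7e-11), as was the adenine salvage gene *APT1* (-0.99 ± 0.17). Both passed in all 6 fits with 1 array left out, which still pool the spread of all groups. The xanthine salvage gene *XPT1*, with 9.44, 9.09 and 9.43 against 8.40, 8.34 and 8.52 (0.90 ± 0.11), rose, and so did *URA10*, an orotate phosphoribosyltransferase gene (7.78, 8.73 and 7.82, against 6.99, 6.99 and 7.01; 1.11 ± 0.16), and the CTP synthase gene *URA8* (0.87 ± 0.11). CTP is the precursor of the CDP-linked intermediates of phospholipid synthesis. The dihydroorotate dehydrogenase gene *URA1* fell (-1.03 ± 0.21, adjusted p = 0.00165) but was lost without reference replicate 3 (adjusted p = 0.0104). Of 36 members 3 rose and 5 fell, beside 3.25% higher and 4.48% lower among all genes, and the list's array medians were -0.20, -0.77 and -0.13. In ammonium assimilation the glutamine synthetase gene *GLN1* read 8.44, 9.50 and 8.47, against 10.43, 10.42 and 10.52 (-1.66 ± 0.32, adjusted p = 0.0012), *GDH3* fell (-0.63 ± 0.09, adjusted p = 3.9e-05), and the ammonium permease gene *MEP3* rose (0.84 ± 0.14). With replicates 1 and 3 left out, *GLN1* (-0.96, adjusted p = 0.101) and *MEP3* (0.38, adjusted p = 0.0708) did not pass. The main glutamate dehydrogenase gene *GDH1* fell (-0.83 ± 0.20, adjusted p = 0.00676) but was lost without *opi1*Δ replicate 2 and without any reference array (-1.0 to -0.50, adjusted p up to 0.0263).

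Ribosome and carbon metabolism genes are where the minimum-CO2 arrays parted. Of 118 ribosome biogenesis genes 4 fell and none rose, beside 4.48% lower and 3.25% higher among all genes. The array medians were 0.19, -1.15 and 0.19. With replicate 2 left out 10 rose and 2 fell, beside 13.2% and 10.9% of all genes. For 128 cytosolic ribosomal protein genes, 19 of which fell, the medians were 0.00, -0.63 and -0.06. Without replicate 2, 22 of these were lower and 5 higher, beside 10.9% and 13.2% of all genes. The nucleolar methyltransferase gene *NOP1* was low in all 3 arrays, at 7.82, 7.77 and 8.07, against 9.32, 9.22 and 9.43 in the reference (-1.44 ± 0.32, adjusted p = 0.00339), as were *RPL13A* (8.04, 8.79 and 8.38, against 9.73, 9.75 and 9.76; -1.34 ± 0.29, adjusted p = 0.00298) and *RPS0B* (-1.38 ± 0.30, adjusted p = 0.0031). All 3 were lost without any reference array and without *opi1*Δ replicate 1, and the ribosomal protein genes also without replicate 3 (adjusted p up to 0.0166, 0.0185 and 0.0185). Ribosomal protein paralogs are close in sequence and can share signal.

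In several lists of carbon metabolism replicates 1 and 3 lay below replicate 2. Of 18 citric acid cycle genes 0 passed, with array medians of -0.81, 0.15 and -0.81, and 9 fell without replicate 2. *SDH2*, a succinate dehydrogenase subunit gene, read 8.79, 10.80 and 8.98 in *opi1*Δ, against 10.63, 10.62 and 10.63 in the reference (-1.10 ± 0.41, adjusted p = 0.053). *HAC1*, the transcription factor gene of the unfolded protein response, which was picked after its values were seen, averaged 7.40 ± 1.73 in *opi1*Δ and 9.67 ± 0.04 in the reference (SD, n = 3 each), and changed by -3.27 without replicate 2 (adjusted p = 0.00231) and by -0.28 with replicate 2 alone. The 39 genes of the respiratory chain and ATP synthase had array medians of -0.01, 0.12 and -0.08, but some members split in the same way. Without replicate 2, 12 of them fell and 3 rose, beside 10.9% and 13.2% of all genes. The array medians of 19 β-oxidation and carnitine shuttle genes were -0.37, 1.17 and -0.29, and those of 9 invertase and maltose genes -0.16, 1.08 and -0.44. Among the few genes of carbon use that all arrays shared were *SIP4*, an activator gene of gluconeogenesis, with 8.25, 9.18 and 8.36 against 7.32, 7.25 and 7.24 (1.33 ± 0.21, adjusted p = 1.0e-04), and the maltose permease gene *MAL31*, with 8.89, 8.95 and 9.03 against 7.86, 7.96 and 7.70 (1.12 ± 0.17, adjusted p = 6.4e-05). The hexokinase gene *HXK2* fell (7.98, 8.49 and 8.11, against 9.52, 9.53 and 9.51; -1.33 ± 0.30, adjusted p = 0.00363), a call lost in 5 of 6 fits, all but that without *opi1*Δ replicate 2 (adjusted p up to 0.0174). Of 27 genes of folding in the endoplasmic reticulum *SBH2*, a translocon subunit gene, alone passed (0.71 ± 0.17, adjusted p = 0.00586), and it was lost in the same 5 fits (adjusted p up to 0.039). *KAR2*, the chaperone gene used as a mark of that response, averaged 10.24 ± 0.10 in *opi1*Δ and 10.56 ± 0.11 in the reference (adjusted p = 0.44).

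**Figure D4:**
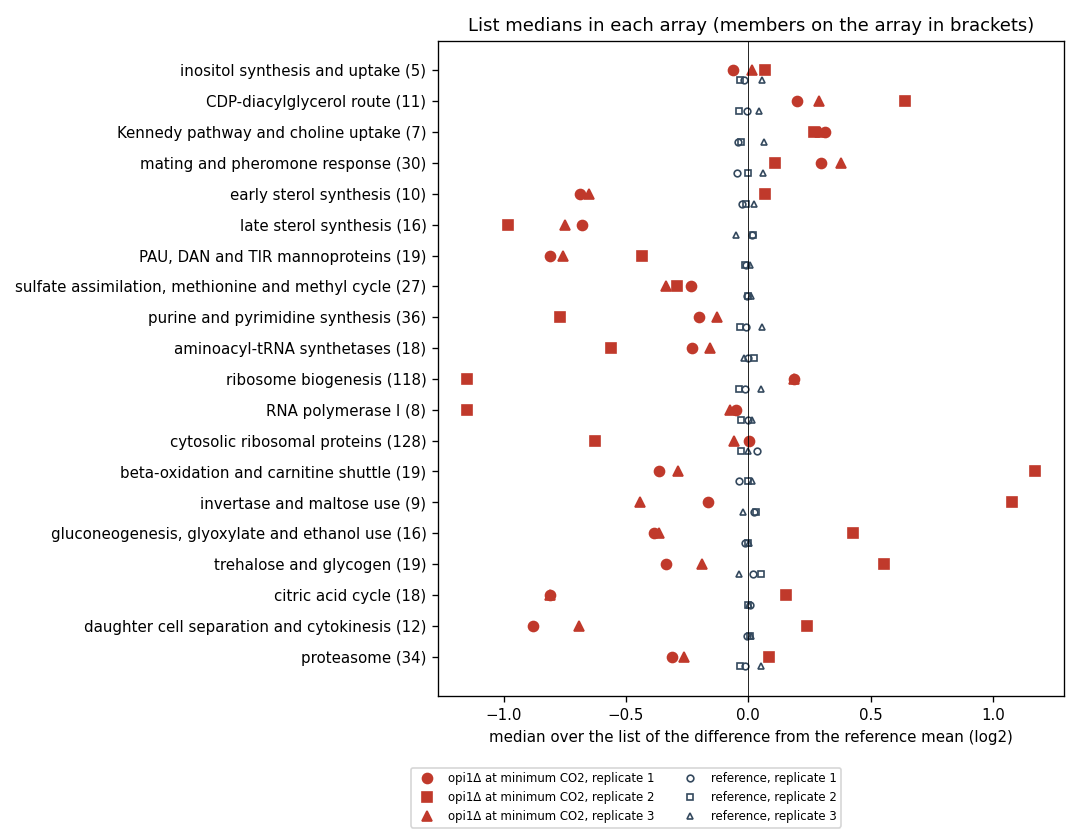
Median over each gene list of the difference from the reference mean (log2), per array, with filled symbols for *opi1*Δ at minimum CO2 and small open symbols for the reference. Late sterol and mannoprotein lists are low in all 3 *opi1*Δ arrays, ribosome lists are low in replicate 2 alone (-1.15 for ribosome biogenesis), and the citric acid cycle is low in replicates 1 and 3 (-0.81 each).

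The minimum-CO2 arrays were also tested against the *opi1*Δ arrays at maximum CO2, taken at the other phase of the oscillation. Whether arrays of both phases come from the same cultures is not stated with the samples. The paper describes sampling the oscillating strain at both points, so the phases may share cultures. The test took their arrays as unpaired. This test and the comparison with the reference share the 3 minimum-CO2 arrays, so their calls are not independent. Between the phases 924 genes were higher at minimum CO2 (17.0%) and 1549 lower (28.4%), with a median difference of -0.10 over all genes, and the split became 1142 to 1295 once every array was centred on its median, and 1128 to 1234 by quantile normalisation. Of the inositol genes 2 of 5 were lower at minimum CO2, *INM1* (-1.20 ± 0.16) and *ITR2* (-0.73 ± 0.12). Of the CDP-diacylglycerol route 1 of 11 was higher and 5 were lower, and of the Kennedy pathway 1 of 7 was higher and 3 were lower. Several of the genes that rose against the reference did not pass between the phases. *INO1* averaged 11.88 ± 0.37 at minimum and 11.80 ± 0.10 at maximum CO2 (0.08 ± 0.18, adjusted p = 0.717), *CHO1* 10.57 ± 0.26 and 10.33 ± 0.03, *OPI3* 11.08 ± 0.60 and 11.02 ± 0.01, *CPT1* 9.43 ± 0.05 and 9.41 ± 0.08 (SD, n = 3 each), and none of these differences passed. *ACC1* (0.56 ± 0.07, adjusted p = 1.5e-07) and *CKI1* (0.47 ± 0.09, adjusted p = 6.4e-05) were higher at minimum CO2, and *PSD1* (-1.37 ± 0.21, adjusted p = 6.9e-06), *CDS1* (-1.14 ± 0.23, adjusted p = 1.7e-04) and *HNM1* (-0.99 ± 0.25, adjusted p = 0.00156) were lower there.

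The sterol genes differed by member: *ERG4* averaged 7.74 ± 0.09 at minimum and 10.10 ± 0.06 at maximum CO2, *ERG3* 8.64 ± 0.23 and 10.05 ± 0.08, and *ERG5* 9.65 ± 0.16 and 9.31 ± 0.08, of which *ERG3* and *ERG4* passed. The PAU genes were low in both phases, with *PAU3* at 6.13 ± 0.09 and 5.87 ± 0.08. *GIP2*, a regulatory subunit gene of a protein phosphatase, *RSF1* and *SIP4* were higher at minimum CO2 by 2.76 ± 0.32, 1.23 ± 0.15 and 2.26 ± 0.21, and *SAM1*, *NOP1* and *SCW10* were lower, with differences of -2.93 ± 0.40, -2.79 ± 0.32 and -2.93 ± 0.35. With 1 array left out, 2049 to 2581 genes passed between the phases.

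The effect of deleting *OPI1* was then compared with that in N-limited chemostats, where glucose is in excess and ammonium limits growth, through the interaction term of the same model. These effects share no arrays, but replicate 1 of the N-limited reference shares the deviation of minimum-CO2 replicates 1 and 3 described above. That deviation enters these effects with opposite signs. In N-limited *opi1*Δ 102 genes rose (1.87%) and 36 fell (0.661%). The genes higher at minimum CO2 and under N-limitation numbered 35, which is 19.8% of those higher at minimum CO2 and 34.3% of those higher under N-limitation; 5 fell under both (2.05% and 13.9%) and 3 moved in opposite directions. Over all genes the effects correlated at r = -0.19, a description over genes that are not independent. The part of the shared deviation in this r was not tested. The difference itself passed for 258 genes, 101 with a more positive effect at minimum CO2 (1.85%) and 157 with a more negative effect (2.88%), which became 182 and 158 once every array was centred on its median, and 188 and 143 by quantile normalisation.

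*INO1* rose under both limitations but by less at minimum CO2 (2.05 ± 0.18) than under N-limitation (4.69 ± 0.18), a difference of -2.65 ± 0.25 (adjusted p = 5.9e-08). Its level in *opi1*Δ was 11.88 ± 0.37 at minimum CO2 and 12.23 ± 0.17 under N-limitation, while the references averaged 9.83 ± 0.05 and 7.54 ± 0.29 (SD, n = 3 each), so that the references lay further apart than the mutants. *CHO1* (1.54 ± 0.11 and 1.63 ± 0.11), *ITR1* (1.55 ± 0.14 and 1.21 ± 0.14) and *OPI3* (1.12 ± 0.27 and 1.54 ± 0.27) did not pass the test of the difference (-0.09 ± 0.15, 0.34 ± 0.19 and -0.41 ± 0.38). *CPT1* rose more at minimum CO2 (0.83 ± 0.07, against 0.29 ± 0.07 under N-limitation; adjusted p = 0.00138 for the difference), and *PSD1* less (0.60 ± 0.21, against 2.02 ± 0.21; adjusted p = 0.00309). Some mating genes rose less at minimum CO2: *MF(ALPHA)1* by 1.70 ± 0.25 against 4.39 ± 0.25, *AGA1* by 1.36 ± 0.19 against 2.92 ± 0.19, and *FIG2* by 0.85 ± 0.10 against 2.86 ± 0.10. Of 30 mating genes, 13 passed with a lower effect at minimum CO2 and none with a higher effect, beside 2.88% and 1.85% of all genes. The differences of *AGA2* (-0.51 ± 0.35, adjusted p = 0.287) and *MFA1* (1.05 ± 0.41, adjusted p = 0.0646), which lay the other way, did not pass.

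Under N-limitation none of the 16 late sterol genes passed, and of the 19 PAU, DAN and TIR genes 1 rose and none fell. Calls were few there as a whole, with 1.87% of all genes higher and 0.661% lower. *ERG3* changed by -2.43 ± 0.35 at minimum CO2 and by 0.27 ± 0.35 under N-limitation (difference adjusted p = 0.00108), and *PAU3* by -3.10 ± 0.24 and -0.16 ± 0.24 (1.5e-06 in the same test). The *PAU3* level was 5.88 ± 0.03 in N-limited *opi1*Δ and 6.03 ± 0.07 in the N-limited reference, near background in both, so a fall could hardly have been measured there. *ERG3* averaged 9.75 ± 0.09 and 9.49 ± 0.85, far above background, but its N-limited reference arrays spread widely.

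**Figure D5:**
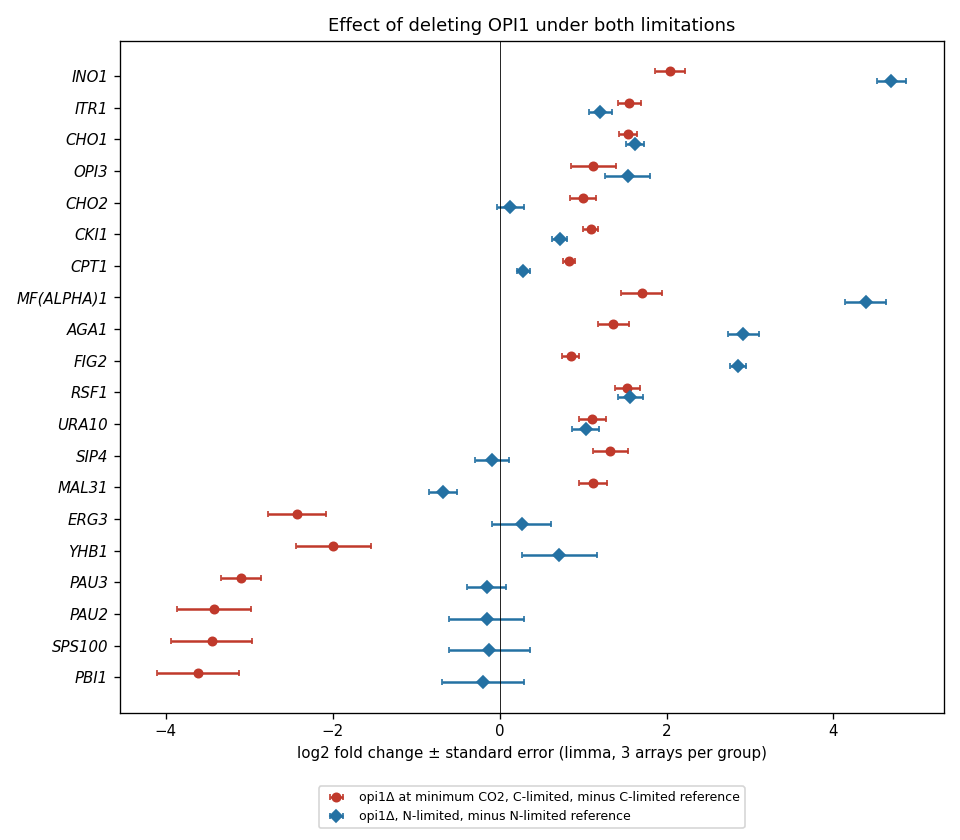
Log2 fold change ± standard error of *opi1*Δ at minimum CO2 against the C-limited reference (red circles) and of N-limited *opi1*Δ against the N-limited reference (blue diamonds), 3 arrays per group. For *CHO1*, *RSF1* and *URA10* the difference between limitations did not pass, *INO1*, *MF(ALPHA)1*, *AGA1* and *FIG2* rose less at minimum CO2, and *PAU2*, *PAU3*, *SPS100*, *PBI1*, *ERG3* and *YHB1* fell at minimum CO2 and did not pass under N-limitation.

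Values of the C-limited double mutant without the activator stand beside these, with the same reference arrays in both comparisons. *INO1* averaged 11.88 ± 0.37 in *opi1*Δ at minimum CO2, 6.19 ± 0.19 in *ino2*Δ*ino4*Δ and 9.83 ± 0.05 in the reference. *ITR1* averaged 11.63 ± 0.22, 8.93 ± 0.03 and 10.08 ± 0.04 in this order, *OPI3* 11.08 ± 0.60, 7.75 ± 0.18 and 9.96 ± 0.05, and *ACC1* 11.89 ± 0.00, 10.94 ± 0.05 and 11.35 ± 0.06 (SD, n = 3 each). For these genes the reference lies between the mutants. *CKI1* and *CPT1* averaged 6.47 ± 0.02 and 8.55 ± 0.12 in *ino2*Δ*ino4*Δ, near the reference at 6.61 ± 0.07 and 8.60 ± 0.02, and were high in *opi1*Δ alone at 7.70 ± 0.16 and 9.43 ± 0.05. *PAU3* averaged 6.13 ± 0.09, 6.81 ± 0.65 and 9.23 ± 0.16 and thus was below the reference in both mutants.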

How the data were processed

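RNA of chemostat samples was hybridised to Affymetrix Yeast Genome 2.0 arrays, 3 for each of 11 groups. The authors deposited log2 values that they had made with the PLIER algorithm on all 33 arrays together, with its version not given in the sources used here; a joint normalisation of this kind ties the level of each array to the others. Labels and methods name different RNA kits. The deposited values lay between 4.70 and 13.48, with array medians of 7.14 to 7.44. Of 10928 probe sets, 7244 carried 1 symbol in the platform annotation (11 symbols were updated by identifier), 1 carried several and 3683 were not listed. For 47 genes with several probe sets the brightest was used, which left 5449 genes, 288 of them below background.

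One coefficient per group was fitted to all 33 arrays with limma 3.58.1 in R 4.3.3 (22 residual degrees of freedom, prior 2.95), with Benjamini-Hochberg adjustment over all genes and a threshold of 0.01. Tables and plots were made with Python 3.11.15, numpy 2.4.6, pandas 2.3.3 and matplotlib 3.10.9. On simulated data for the comparison with the reference, run on 5449 genes, 82 of 100 genes changed by a log2 of 1 and 100 of 100 changed by a log2 of 2 were recovered, with 4 false calls. The simulated arrays were independent and each gene had the same spread in every group. In the data the median SD was 0.2515 at minimum CO2 and 0.0725 in the reference, and some arrays shared a deviation. The simulated rates therefore cannot be taken as those of this comparison.

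The members and the 49 gene lists were chosen with earlier results of these data known. Named were *OPI1* and its neighbours, members of the inositol, phospholipid, regulator and fatty acid lists, the 15 largest rises and 15 largest falls without overlap, up to 6 called members a list (otherwise the most changed member), genes that the study discusses, and the 8 largest in each direction in each test of a difference. Further genes, *HAC1* and uncalled mating type markers among them, were chosen after their values were seen. Alternatives covered scaling, filters, the arrays in the fit, thresholds, the methods' t-test and single arrays left out. No sequences are shown.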

Additional observations from a re-analysis of the deposited data

Results flagged for a closer look

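The effect of the *opi1* deletion differed between minimum CO2 under C-limitation and N-limitation for 258 genes by the interaction term of the limma model. Among the genes that also changed against the C-limited reference, the most negative differences (log2, effect at minimum CO2 minus effect under N-limitation) were -3.41 for *PBI1*, -3.32 for *SPS100*, -3.27 for *PAU2*, -2.95 for *PAU3*, -2.71 for *YHB1*, -2.69 for *ERG3*, -2.68 for *MF(ALPHA)1* and -2.65 for *INO1*. *PBI1*, *SPS100*, *PAU2* and *PAU3* were near background in both N-limited groups, where *PBI1* averaged 5.60 ± 0.04 in *opi1*Δ and 5.80 ± 0.17 in the reference (SD, n = 3 each). The most positive differences were 2.25 for *YLR154C-H*, 1.80 for the maltose permease gene *MAL31*, 1.43 for the SAGA subunit gene *SPT20*, 1.42 for *SIP4*, 1.35 for *YGL007C-A*, 1.32 for the cytochrome oxidase assembly gene *COA2*, 1.26 for the chromatin remodeller gene *RSC2* and 1.24 for the spore gene *ADY4*. *SIP4* averaged 5.44 ± 0.08 in N-limited *opi1*Δ, below the background of 5.47, and 5.53 ± 0.16 in its reference, so that its change under N-limitation was not measured and its difference is no exact size. *YGL007C-A* averaged 5.93 ± 0.10 and 6.07 ± 0.28 in these groups. Groups of 3 arrays were not searched gene by gene for a single array that stands apart.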

How the results depend on the processing

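The counts of changed genes depended on the processing. That against the reference was 421, and became 67 with only the 6 arrays compared in the fit, 18 by the methods' t-test after Benjamini-Hochberg adjustment, 964 without replicates 1 and 3, 116 at a threshold of 0.001 and 1173 at 0.05, and it ranged over 145 to 1315 with 1 array left out. The count between phases, 2473, became 1266 with only the arrays compared and 674 by the methods' t-test. The count for the difference between limitations, 258, became 87 with only the arrays compared, 558 without replicates 1 and 3, 65 at 0.001 and 1087 at 0.05, with 131 to 1367 when 1 array was left out. Among alternatives chosen after seeing the data, leaving out the 5 arrays of the shared deviation gave 1635 genes against the reference and 998 for the difference between limitations, and a replicate block with only the arrays compared gave 0, 333 and 52 genes in the 3 tests. With the replicate block in the fit of all arrays the counts were 430, 2517 and 304. Same-numbered arrays deviated together at r = -0.06, 0.19 and 0.26 between *opi1*Δ at minimum CO2 and the reference and at 0.09, -0.17 and -0.21 between the phases, so the numbers were not taken to pair the arrays. The signs of 6 uncalled genes turned: *CDS1* ranged over -0.17 to 0.47, *ACS1* over -0.37 to 0.24 and *FAA2* over -0.78 to 0.23 with 1 array left out, and without replicates 1 and 3, or without the 5 arrays, *UME6* was at -0.09, *FAA2* at 1.20, *STE2* at 0.12 and *SDH2* at 0.17. The cause was not tested. Over the named genes, 1681 values kept direction and side of the threshold, 439 lost and 33 gained the call, and 13 changed sign. Of the lost calls, 45 came with only the arrays compared in the fit and 78 by the methods' t-test. Array weights did not converge and promoter motifs were not searched; neither was run. The number of arrays and, for 288 genes, a signal below background limit the values.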
